A study of Homo sapiens with 4 samples.

Results

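The genes described here encode the machinery that loads peptides onto MHC class I molecules and shows them at the cell surface. They were 9 genes fixed by symbol, namely HLA-B, HLA-C, HLA-E, B2M, TAP1, TAP2, TAPBP, NLRC5 and ERAP1, and a gene was a member when its symbol stood in the count table. Of these 9, B2M, TAPBP, NLRC5 and ERAP1 (4 genes) were measured among the 24014 genes of the table, while HLA-B, HLA-C, HLA-E, TAP1 and TAP2 (5 genes) were not analysed here. The counts came from RNA-seq of SK-N-SH, a human neuroblastoma cell line whose cultures mix neuroblast-like and substrate-adherent cells. The study asked which transcripts differ when the long non-coding RNA AP1AR-DT is expressed in these cells from a lentivirus. In 2 libraries (control) the titles and genotype labels call the cells WT or wild type, and the treatment labels say that they received a lentiviral vector without insert. In the other 2 (AP1AR-DT_OE) the cells received a lentivirus with AP1AR-DT, which the labels call AC109347.1. By the treatment labels all 4 libraries thus came from lentivirus-treated cells of 1 line, and untreated cells were not analysed here. Libraries are numbered 1 and 2 within a group as their titles number them. Nothing in the labels says that they came from separate cultures, so the p-values measure only the spread between these libraries, which may be technical.

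Class I molecules consist of a polymorphic heavy chain (such as HLA-B, HLA-C or the less variable HLA-E), the invariant light chain B2M and a short peptide. Peptides cut by the proteasome are carried into the endoplasmic reticulum by the TAP1 and TAP2 transporter, are trimmed there by ERAP1 and are fitted into the heavy chain with the help of TAPBP (tapasin) and general chaperones. The genes share promoter elements that are read by interferon-activated factors and by NLRC5, a class I transactivator that is recruited through the RFX complex and CREB or ATF factors, and neuroblastoma cells are known for low surface class I.

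Promoter sequences were read from RefSeq on GRCh38.p14, from 250 bases before to 50 bases after the start of transcription, and were found for 7 of the 9 members (none for HLA-E and NLRC5). Those of B2M, TAPBP, ERAP1 and HLA-B are printed because they show the elements through which the pathway is known to be switched on together. Capitals mark matches, on either strand, to GAAA followed, after any 2 bases, by a second GAAA (an interferon response element core), CCAAT (the box bound by NF-Y) and TGACG (the core of the CREB or ATF site). The B2M promoter lies at chr15:44711267-44711566 on the plus strand. The others lie on the minus strand, TAPBP at chr6:33314029-33314328, ERAP1 at chr5:96807896-96808195 and HLA-B at chr6:31357130-31357429.
B2M promoter: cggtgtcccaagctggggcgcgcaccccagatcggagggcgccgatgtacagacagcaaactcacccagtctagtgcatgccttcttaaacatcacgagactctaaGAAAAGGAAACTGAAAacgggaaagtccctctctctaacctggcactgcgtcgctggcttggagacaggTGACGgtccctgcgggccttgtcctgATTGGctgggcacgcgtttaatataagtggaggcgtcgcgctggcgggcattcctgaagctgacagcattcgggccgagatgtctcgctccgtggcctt
TAPBP promoter: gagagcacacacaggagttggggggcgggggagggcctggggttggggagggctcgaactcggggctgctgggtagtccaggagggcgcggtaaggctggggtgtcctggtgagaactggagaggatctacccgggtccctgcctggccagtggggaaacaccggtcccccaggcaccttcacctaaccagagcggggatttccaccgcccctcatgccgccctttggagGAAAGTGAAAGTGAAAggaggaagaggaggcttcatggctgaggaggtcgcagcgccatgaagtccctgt
ERAP1 promoter: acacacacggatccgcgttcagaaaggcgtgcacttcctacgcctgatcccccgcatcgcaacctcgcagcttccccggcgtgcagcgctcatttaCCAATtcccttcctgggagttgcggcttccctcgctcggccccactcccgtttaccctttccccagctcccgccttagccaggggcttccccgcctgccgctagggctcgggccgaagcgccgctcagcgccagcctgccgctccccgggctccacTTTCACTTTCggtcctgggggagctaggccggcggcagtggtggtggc
HLA-B promoter: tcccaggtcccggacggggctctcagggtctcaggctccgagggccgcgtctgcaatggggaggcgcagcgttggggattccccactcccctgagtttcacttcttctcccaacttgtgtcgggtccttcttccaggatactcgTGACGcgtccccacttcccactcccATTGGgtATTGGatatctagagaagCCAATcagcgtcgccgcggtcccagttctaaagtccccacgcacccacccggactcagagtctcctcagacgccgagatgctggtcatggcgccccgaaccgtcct

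The interferon response core was found in 5 of the 7 member genes with a promoter sequence (B2M, TAP1, TAP2, TAPBP and ERAP1) and in 3.57% of the 35116 promoter windows of the same length in the table. In B2M and in TAPBP the core stood as 2 matches that share 4 bases, starting 144 and 138 bases before the B2M start and 20 and 14 bases before the TAPBP start. CCAAT was found in 5 of the 7 genes against 34.6% of all windows, with 3 matches in HLA-B, and TGACG was found in 4 of the 7 against 24.6%. The 7 genes had 9 windows, because TAP1 and ERAP1 each have a further annotated start. A gene was counted when any of its windows matched, while the shares are over single windows. The further windows of TAP1 and ERAP1 held neither the core nor CCAAT nor TGACG. The NRF1 element (GCGCA, any base, GCGC), held by 5.78% of all windows, was in none of the 7, which says only that these letters are not in these windows. A match is a description of the sequence and shows no binding in these cells.

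The libraries held between 21988065 and 26184599 counts, and low counts gathered at 4 and 8, so that a read pair was worth about 4 counts. AP1AR-DT itself had 3 and 18 counts in controls 1 and 2 against 680 and 1065 in AP1AR-DT_OE 1 and 2, a Log2FC (log2 of AP1AR-DT_OE over control) of 6.63 (SE = 0.64, adjusted p = 3.64e-21 in DESeq2), as its labels said. In the edgeR quasi-likelihood test its adjusted p was 0.39. Adrenergic markers were counted in every library, with sums over 15 genes of 48454 and 37471 normalized counts in the controls against 45344 and 42729 in AP1AR-DT_OE, and so were mesenchymal markers, with sums over 17 genes from 164246 to 228130. Of 14 leukocyte markers, the 7 that were analysed summed to 494 and 256 normalized counts in the controls against 396 and 358 in AP1AR-DT_OE, mainly CORO1A and CD68, and PTPRC, CD3D, CD3E, MS4A1 and LYZ were not analysed here.

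None of the 4 measured members (0 of 4) differed between AP1AR-DT_OE and control at an adjusted p under 0.05 in DESeq2 (Wald test, Benjamini-Hochberg), where 0.137% of all 24014 genes were called and 0.0541% were called lower in AP1AR-DT_OE. None (0 of 4) had an unadjusted p under 0.05 either, against 0.816% of all genes, and the edgeR quasi-likelihood test also called 0 of them, with 0 of 17027 genes called in all and 0.658% at an unadjusted p under 0.05. The 4 Log2FC values were all below 0, from -0.36 for ERAP1 to -0.16 for B2M, with a median of -0.24 beside -0.03 over all genes tested. That median depended on the controls, at 0.05 with control replicate 1 left out and -0.60 with control replicate 2 left out. Because fewer cells of a kind and less RNA per cell look alike in bulk RNA, none of the values below tells them apart.

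**Figure D1:**
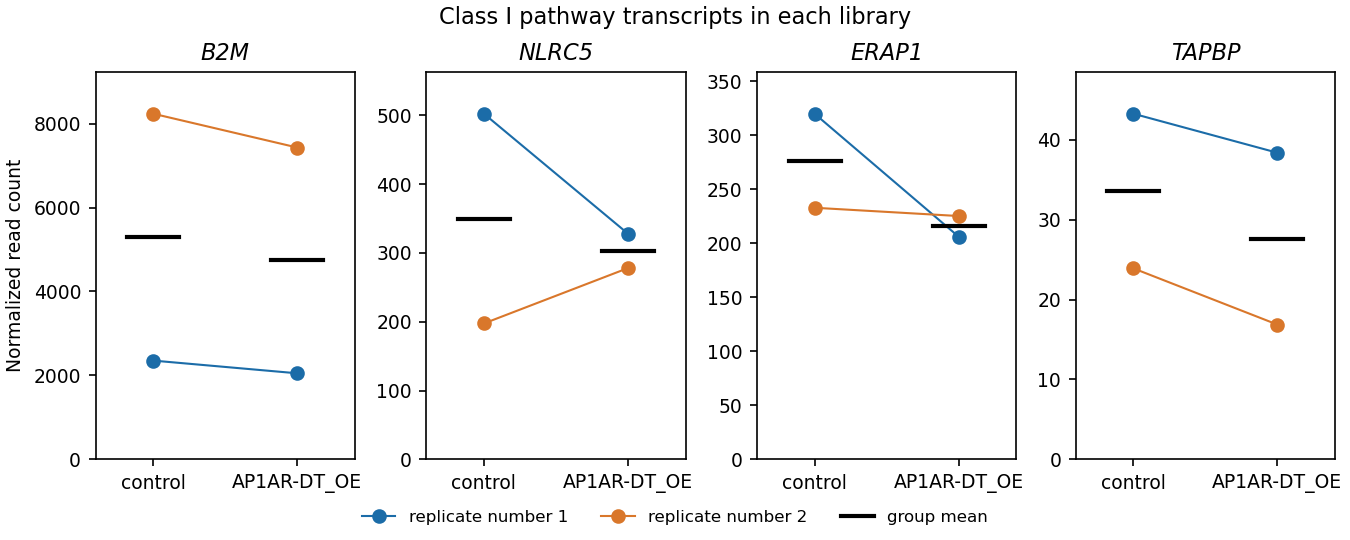
Normalized read counts (y axis, each panel with its own scale from 0) of the 4 measured members in the control and AP1AR-DT_OE libraries. Points are single libraries, lines join the libraries with the same replicate number and black bars are group means; for B2M both libraries numbered 2 (8236 and 7430.2) lie above both numbered 1 (2353 and 2050.1), in control and in AP1AR-DT_OE alike.

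B2M (ENSG00000166710; chromosome 15, 44711487 to 44718851, GRCh38) encodes beta-2-microglobulin, the light chain without which no classical class I molecule leaves the endoplasmic reticulum. Its normalized read count, the count divided by the library's size factor, was 2353 in control 1, 8236 in control 2, 2050.1 in AP1AR-DT_OE 1 and 7430.2 in AP1AR-DT_OE 2. The groups overlapped, and the libraries numbered 2 were high and those numbered 1 low in both. The group means were 5295 ± 4160 (SD, n = 2) and 4740.1 ± 3804 (SD, n = 2), with a Log2FC of -0.16 (SE = 0.66, adjusted p = 1.00 in DESeq2) and a 95% interval from -1.45 to 1.13, or from 0.366-fold to 2.19-fold. Within number 1 the log2 ratio of AP1AR-DT_OE over control was -0.20 and within number 2 it was -0.15, each from 1 library a group and without a test. Leaving out control replicate 2 gave a Log2FC of 1.02, and leaving out AP1AR-DT_OE replicate 1 gave 0.48.

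The difference between replicate numbers was thus larger for B2M than the difference between control and AP1AR-DT_OE. Number 2 exceeded number 1 by 3.50-fold in the controls and by 3.62-fold in AP1AR-DT_OE. Of 13220 genes with a mean of 50 or more and a ratio in both groups, 69 (0.522%) had ratios at least as high as those of B2M in both. Across genes, which are not independent replicates, this ratio went down as transcript GC content went up. Spearman's rho was -0.79 in control, among 13245 genes, and -0.66 in AP1AR-DT_OE, among 13248 genes, over those with a GC value. The B2M transcript (943 bases) has a GC content of 39.1%. After a smoothed GC trend was taken out of each library, the log2 ratio of number 2 over number 1 for B2M went from 1.81 to 0.62 in control and from 1.86 to 1.11 in AP1AR-DT_OE. The labels do not say what the replicate number stands for, and the part of GC content in the B2M levels was not tested.

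**Figure D2:**
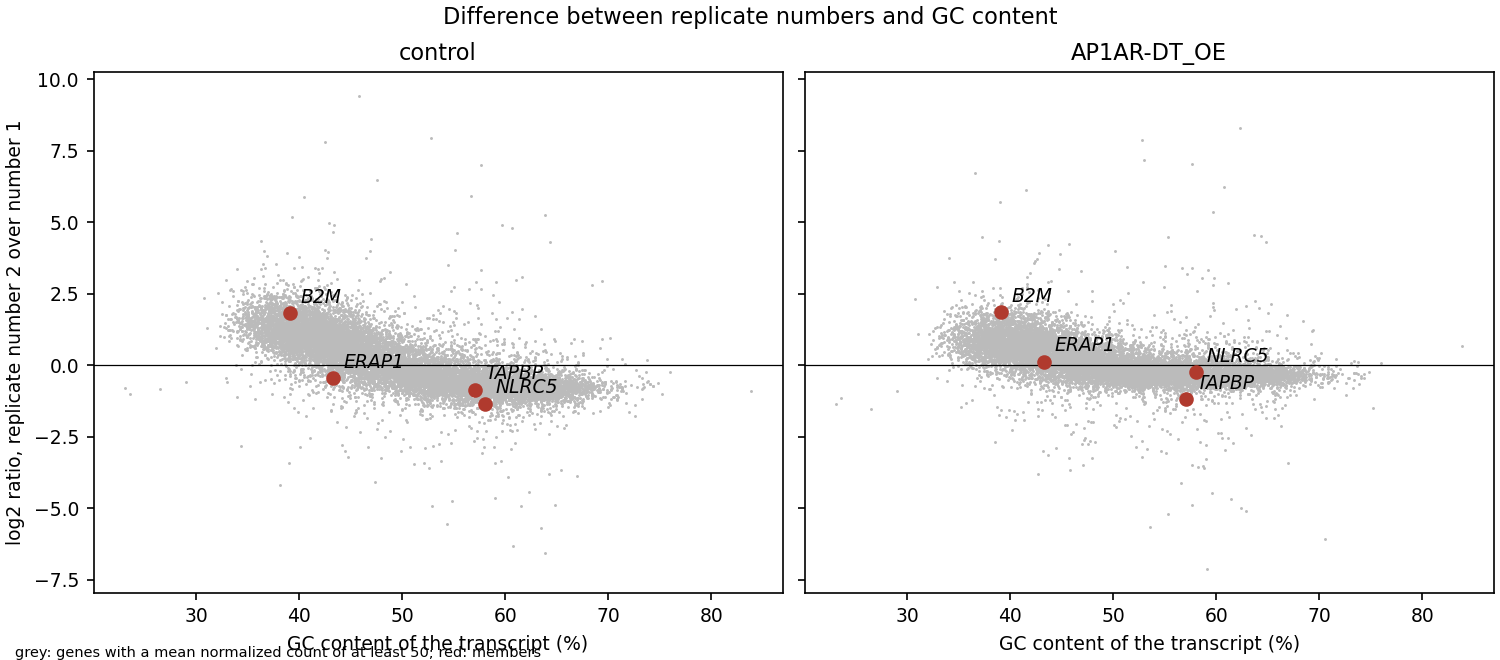
Log2 ratio of replicate number 2 over number 1 (y axis) against the GC content of the transcript in percent (x axis), in control (left) and AP1AR-DT_OE (right). Grey points are genes whose normalized counts averaged 50 or more and red points are the 4 measured members; B2M, at 39.1% GC, stands at 1.81 and 1.86, and TAPBP, at 57.1% GC, at -0.86 and -1.19.

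The 3 genes whose pattern over the 4 libraries was nearest to that of B2M, by the root mean square difference of centred log2 counts among 9442 genes with a mean of at least 200, were BLOC1S2 (0.051), a subunit of a lysosome-trafficking complex, MMADHC (0.055), which acts in cobalamin metabolism, and BCAP29 (0.056), a protein of the endoplasmic reticulum membrane. BLOC1S2 had 116 and 429 normalized counts in the controls against 112 and 389 in AP1AR-DT_OE, the same low and high libraries as B2M. These genes had GC contents of 41.6%, 39.7% and 33.8%.

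NLRC5 (ENSG00000140853; chromosome 16, 56989485 to 57083531) encodes the transactivator that assembles on class I promoters. Its normalized counts were 502 in control 1, 197 in control 2, 328 in AP1AR-DT_OE 1 and 278 in AP1AR-DT_OE 2. The controls were the highest and the lowest libraries, with both AP1AR-DT_OE libraries between them. The Log2FC was -0.21 (SE = 0.58, 95% interval from -1.34 to 0.92, adjusted p = 1.00 in DESeq2). The sign differed between the numbers, at a log2 ratio of -0.61 within number 1 against 0.49 within number 2, and leaving out control replicate 1 turned the Log2FC to 0.62. NLRC5 has a GC content of 58.0%, and the nearest patterns were those of ZNF213 (root mean square difference 0.045), APC2 (0.049) and IQSEC2 (0.049), with GC contents of 65.5%, 70.1% and 62.5%.

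ERAP1 (ENSG00000164307; chromosome 5, 96760810 to 96808100) encodes the aminopeptidase that trims peptides to the length class I molecules hold. Its normalized counts were 320.0 in control 1, 233 in control 2, 206 in AP1AR-DT_OE 1 and 225 in AP1AR-DT_OE 2. Both AP1AR-DT_OE libraries lay below both controls, narrowly so in number 2. Of the members with a mean of at least 50, this held for 1 of 3, where it held for 4.35% of the 13298 genes at that level. The Log2FC was -0.36 (SE = 0.53, 95% interval from -1.39 to 0.67, adjusted p = 1.00 in DESeq2), and the log2 ratio was -0.63 within number 1 against -0.05 within number 2. With the GC trend taken out of each library, the groups overlapped. The counts were then 413 and 175 in controls 1 and 2 against 247 and 195 in AP1AR-DT_OE 1 and 2. Exons of ERAP1 overlap CAST on the opposite strand, and since the use of strand in counting is not given in the sources used here, reads from CAST cannot be told apart from its own. Exons of TAPBP likewise overlap a non-coding gene of the opposite strand. NLRC5 lies across a non-coding gene and a pseudogene of the opposite strand, but its exons do not overlap theirs. ERAP2, the partner enzyme encoded beside ERAP1, had 244 and 577 normalized counts in the controls against 199 and 454 in AP1AR-DT_OE (Log2FC = -0.33, SE = 0.61), with overlapping groups and a Log2FC of 0.43 when control replicate 2 was left out.

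TAPBP (ENSG00000231925; chromosome 6, 33299694 to 33314387) encodes tapasin, which bridges the TAP transporter and the empty heavy chain. Its counts were 38 and 31 in controls 1 and 2, against 35 and 17 in AP1AR-DT_OE 1 and 2, equal to between 4.25 and 9.5 read pairs a library. Its normalized counts were 43.3 and 23.9 in the controls against 38.4 and 16.9 in AP1AR-DT_OE, where a floor of 3 read pairs stands at 9.26 to 13.7, and the groups overlapped. The Log2FC was -0.28 (SE = 0.99, 95% interval from -2.23 to 1.67, adjusted p = 1.00 in DESeq2), which reaches from 0.213-fold to 3.18-fold and leaves changes within it not detectable at this depth. It turned to 0.21 when control replicate 1 was left out and to 0.19 when AP1AR-DT_OE replicate 2 was. TAPBP, B2M and ERAP1 were lower in AP1AR-DT_OE within both numbers. Of the members with a mean of at least 50, which leaves out TAPBP, this held for 2 of 3 (B2M and ERAP1), where it held for 19.8% of the 13298 genes at that level. With the GC trend taken out of each library, it held for neither B2M nor ERAP1. Within number 2, B2M then stood at 5311 in control against 5880 in AP1AR-DT_OE, and ERAP1 at 175 against 195. TAPBP stayed lower there, at 30.2 against 18.5.

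**Figure D3:**
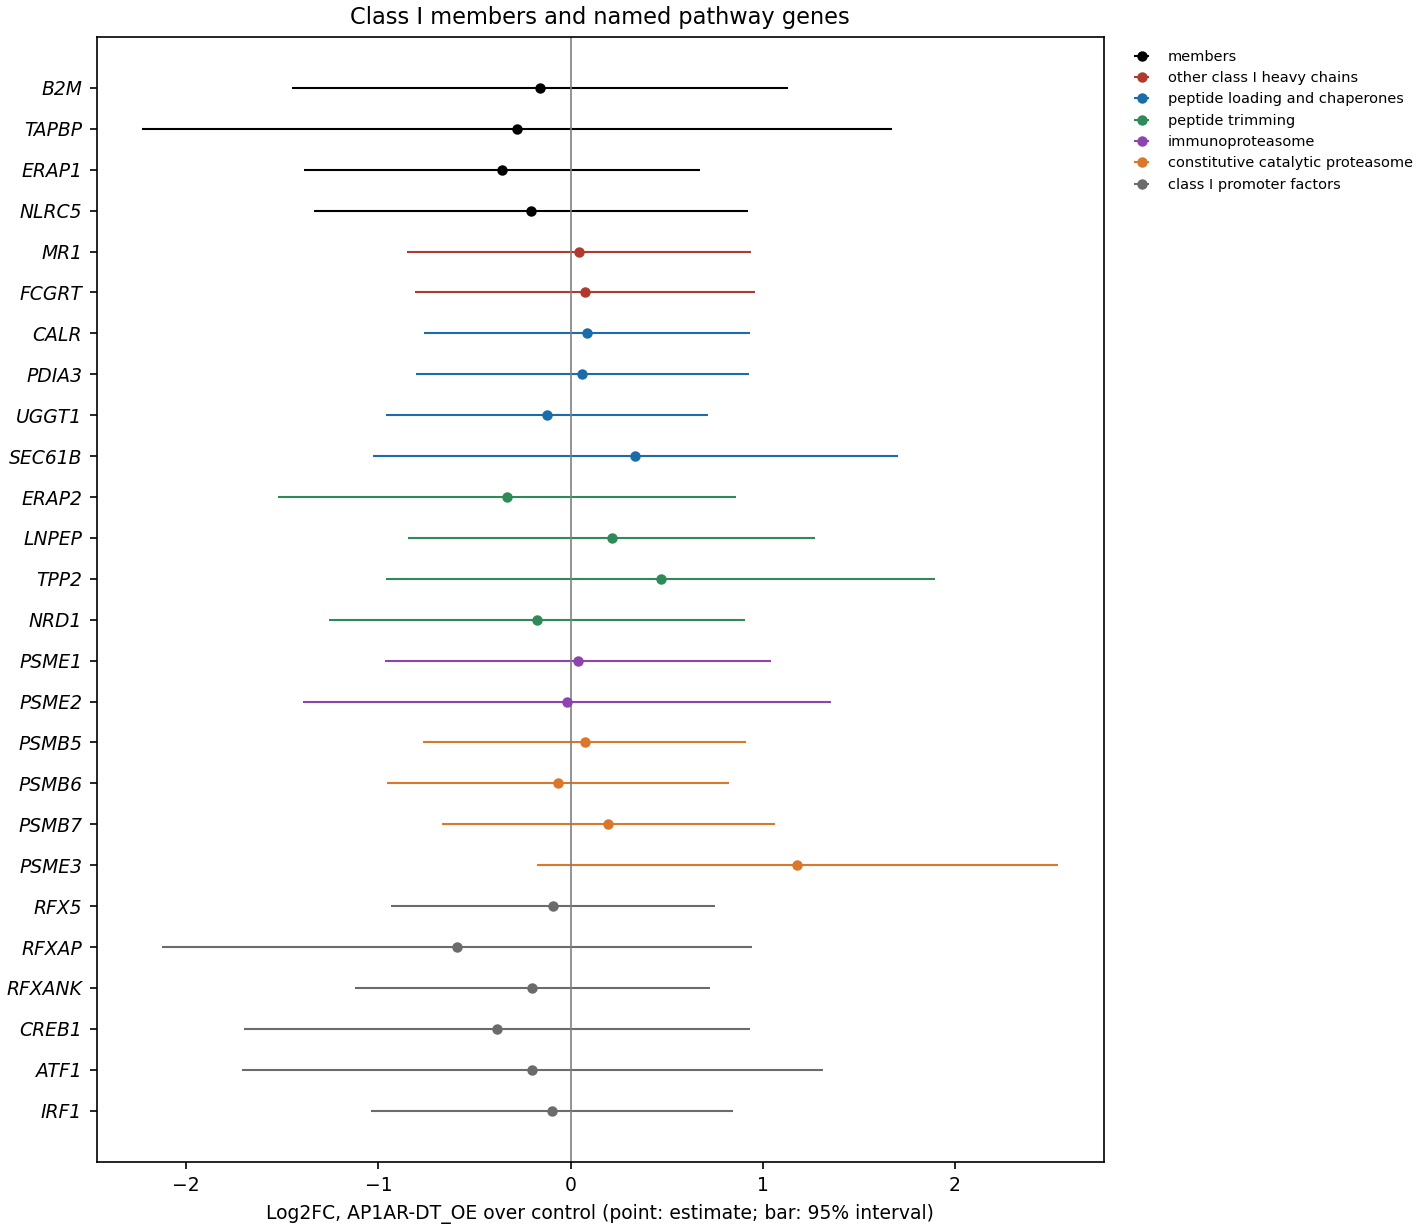
Log2FC of AP1AR-DT_OE over control (x axis) for the 4 measured members and the named genes of 6 pathway lists (y axis, coloured by list). Points are DESeq2 estimates and bars 95% intervals; every member's bar spans 0, that of TAPBP from -2.23 to 1.67 and that of B2M from -1.45 to 1.13.

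The class I-like genes MR1, which presents vitamin metabolites, and FCGRT, the IgG receptor that also pairs with B2M, had Log2FC values of 0.04 and 0.07.

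Levels between genes were compared as normalized counts per kilobase of transcript. B2M was highest of the members at a mean of 5321 (from 2174 to 8734 over the 4 libraries) and ranked 201 of 14906 protein-coding genes. ERAP1 followed at 50.8 (from 42.6 to 66.1) and NLRC5 at 48.1 (from 29.1 to 74.1), and these neighbours did not differ beyond their spread. TAPBP was lowest at 8.87 (from 4.89 to 12.5), below every library of ERAP1 and NLRC5. The general chaperone CALR (calreticulin), which holds the heavy chain during loading, had 11225 per kilobase, and PDIA3, the tapasin-bound disulphide isomerase, had 619.

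TAPBP lies in the MHC, the interval of chromosome 6 that also holds the 5 members not analysed here, and counts there were few. Of 164 other protein-coding genes annotated within 4 Mb of TAPBP on the HLA side, 10 were analysed, with a median normalized count of 1.26. Of the 164, 2 genes (1.22%) had a mean of at least 50. BRD2, a chromatin reader and 1 of these, had 59 and 97 counts in the controls against 66 and 45 in AP1AR-DT_OE. Within 4 Mb on the other side of TAPBP, 52 of 67 genes were analysed, with a median of 463, and 33 of the 67 (49.3%) reached a mean of 50. Over all 20175 protein-coding genes the share was 55.0%, with a median of 271 in the 14906 analysed. The part of this gap in the level of TAPBP was not tested, and its counts are compared here only between libraries, except for the levels per kilobase above.

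**Figure D4:**
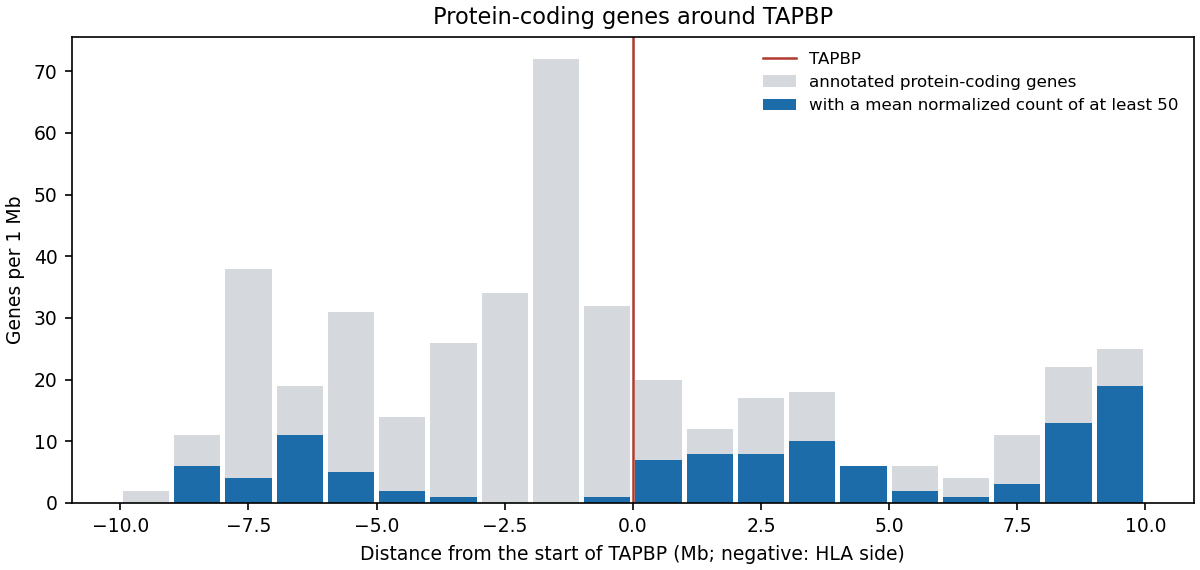
Protein-coding genes per 1 Mb (y axis) by distance from the start of TAPBP in Mb (x axis, negative toward the HLA genes, red line at TAPBP). Grey bars are annotated genes and blue bars those averaging 50 or more normalized counts; of the 164 genes in the 4 Mb on the HLA side, 2 reached that count, against 33 of 67 on the other side.

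The rest of the pathway was read from 6 lists of 56 genes (other heavy chains, loading and chaperones, trimming, immunoproteasome, constitutive proteasome and class I promoter factors), of which 46 were analysed. None (0 of 46) was called or had an unadjusted p under 0.05 in DESeq2, and of the 42 with a mean of at least 50, 20 had a Log2FC above 0 and 22 below, with a median of -0.02 beside -0.02 over all genes at that level. Small Log2FC values were not stable here or in the lists below: of 54 genes that the naming rule took from the lists, 41 changed sign when some 1 library was left out. Of the 8 loading genes, CALR had 23806 and 17586 normalized counts in the controls against 23597 and 20362 in AP1AR-DT_OE (Log2FC = 0.09, SE = 0.43), with overlapping groups. PDIA3 (Log2FC = 0.06), SEC61B of the translocation channel (0.34) and the glucosyltransferase UGGT1 (-0.13) had unadjusted p-values from 0.630 to 0.889. Of the trimming enzymes, TPP2, a cytosolic peptidase, had the highest Log2FC at 0.47 (SE = 0.73), which was -0.24 with AP1AR-DT_OE replicate 2 left out. PSMB8 and PSMB9, the interferon-induced proteasome subunits, were not analysed here, and the activator subunits PSME1 and PSME2 had Log2FC values of 0.04 and -0.02.

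Among the constitutive proteasome genes, PSME3, a nuclear proteasome activator, had the lowest p of the 6 lists. It had 622 normalized counts in control 1 against 4766 in control 2, 7238 in AP1AR-DT_OE 1 and 4975 in AP1AR-DT_OE 2. Control 1 stood apart from the other 3 libraries, and the gene overlaps BECN1 on the opposite strand. The Log2FC was 1.18 (SE = 0.69, unadjusted p = 0.0881 and adjusted p = 1.00 in DESeq2), and it was 0.36 with control replicate 1 left out, while with control replicate 2 left out it was 3.31 with an adjusted p of 4.09e-12. The catalytic subunits PSMB5, PSMB6 and PSMB7 had Log2FC values of 0.07, -0.07 and 0.20.

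The 17 factors that act on class I promoters were all analysed, and 16 had a mean of at least 50, with 5 Log2FC values above 0, 11 below and a median of -0.09. RFX5, a subunit of the RFX complex, had 1755 and 1817 normalized counts in the controls against 1656 and 1699 in AP1AR-DT_OE (Log2FC = -0.09, SE = 0.43). Both AP1AR-DT_OE libraries lay below both controls by a narrow margin. RFXAP, its small partner, had the lowest Log2FC of the list at -0.59 (SE = 0.78), on 41.7 to 74.1 normalized counts. IRF1, which reads the interferon response element, had 1107 and 714 normalized counts in the controls against 977 and 723 in AP1AR-DT_OE, with a Log2FC of -0.10 (SE = 0.48). CREB1 had a Log2FC of -0.38 (SE = 0.67), which turned to 0.11 with AP1AR-DT_OE replicate 1 left out and to 0.51 with control replicate 2 left out.

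Upstream of the promoters, the 14 interferon receptor and JAK-STAT genes were all analysed and none (0 of 14) was called. IRF9, the DNA-binding part of the type I interferon complex, had 656 normalized counts in control 1, 100.3 in control 2, 129 in AP1AR-DT_OE 1 and 114 in AP1AR-DT_OE 2. Control 1 was high and the other 3 libraries were alike. Its Log2FC of -1.63 (SE = 0.74, unadjusted p = 0.0263, adjusted p = 1.00 in DESeq2) became 0.28 without control replicate 1, and without control replicate 2 it was -2.42 with an adjusted p of 0.0055. IRF9 also shares exon sequence on the same strand with another annotated gene. The receptor chain IFNAR2 had 80.9 and 139 normalized counts in the controls against 285 and 114 in AP1AR-DT_OE, with AP1AR-DT_OE 1 above the other 3 libraries. Its Log2FC of 0.86 (SE = 0.66) was 0.05 with AP1AR-DT_OE replicate 1 left out, and the log2 ratio within number 2 was -0.28. The inhibitor SOCS1 had a Log2FC of 0.42 (SE = 0.53). Of 38 interferon-stimulated genes, 37 were analysed, 0 were called and 0 had an unadjusted p under 0.05, and the 20 with a mean of at least 50 had 11 Log2FC values above 0, 9 below and a median of 0.05.

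The 12 measured silencers of class I in tumours and the 10 class I ligands and checkpoints had median Log2FC values of -0.0064 and -0.0027 among their 11 and 7 genes with a mean of at least 50, with none called (0 of 22). CD274, the checkpoint ligand PD-L1, had 268 and 409 normalized counts in the controls against 260.0 and 405 in AP1AR-DT_OE (Log2FC = -0.03). The libraries numbered 2 were the higher in both groups, as for B2M. With the GC trend taken out of each library, this held for B2M but not for CD274. The log2 ratio of number 2 over number 1 for CD274 was then -0.44 in control and -0.03 in AP1AR-DT_OE. Of 13 class II genes 2 were analysed, and the class II peptide protease CTSS had a Log2FC of -0.42 (SE = 0.72), which turned to 0.85 with control replicate 2 left out. Among the markers of mesenchymal cells, the state in which neuroblastoma class I is known to be higher, PRRX1 had 2770 and 11358 normalized counts in the controls against 1241 and 2246 in AP1AR-DT_OE. Its Log2FC was -2.02 (SE = 0.61, unadjusted p = 0.000987, adjusted p = 0.431 in DESeq2), and 4 of 10 other ways of fitting called it. With control replicate 1 left out its adjusted p was 4.23e-06, and with control replicate 2 left out its Log2FC was -0.66. The other mesenchymal markers did not share this size: over the 16 with a mean of at least 50 the median Log2FC was -0.08.

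**Figure D5:**
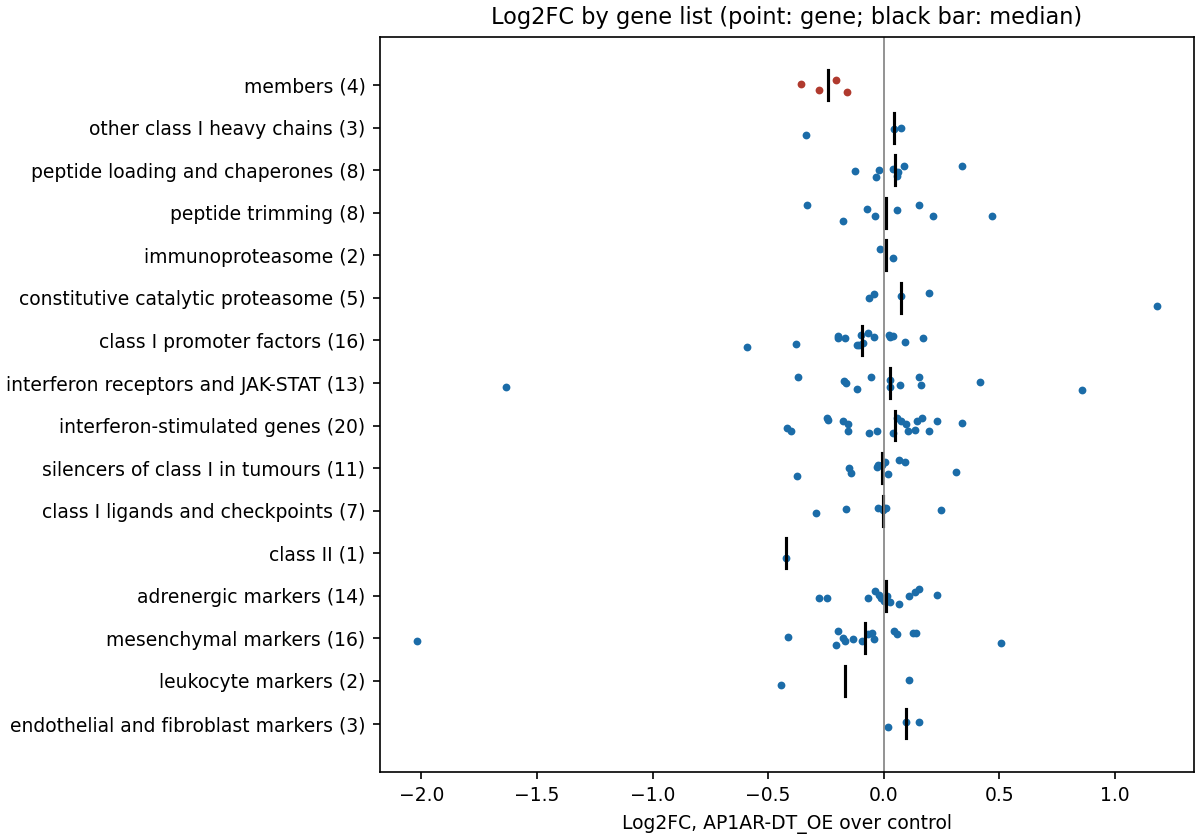
Log2FC of AP1AR-DT_OE over control (x axis) by gene list (y axis, with the number of genes drawn). Points are genes whose normalized counts averaged 50 or more, or all 4 measured members in red, and black bars are medians; the members' median is -0.24, and medians of the promoter factors and interferon-stimulated genes are -0.09 and 0.05.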

How the data were processed

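RNA from SK-N-SH cells was sequenced as paired-end reads in 4 libraries, whose titles gave group and number (for AP1AR-DT_OE replicate 2, the genotype label carries another version suffix of the RNA's name). Per the methods, the authors aligned reads with HISAT2 to hg19, ran StringTie and took gene counts with its Python script. The deposited values are unnormalized, whole-number counts, in which a read pair was worth about 4 counts, and coordinates in the table are GRCh38. The processing notes of the labels name other tools (TopHat2, HTSeq), which the methods give for another experiment. Deposited columns of the authors' own comparisons (fold changes and p-values) were not used.

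The members, lists and tests were chosen with earlier results of these data known. DESeq2 1.42.0 in R 4.3.3 compared the groups over all 24014 genes (medians of ratios, two-sided Wald test, Benjamini-Hochberg adjustment, no covariate), with a call at an adjusted p under 0.05, and was tested on simulated data. Tried beside it were edgeR 4.0.16 (quasi-likelihood, TMM factors), DESeq2 with TMM factors, with a minimum of 10 counts in 2 libraries, without independent filtering and with the likelihood-ratio test, counts divided by 4, a GC correction (lowess, span 0.3), the replicate number as a block, and leaving out each library. Named were the members, AP1AR-DT, IRF1, PSMB8, PSMB9, RFX5, CALR, PDIA3 and ERAP2, from each list genes called and up to 4 with the largest absolute Log2FC at a mean normalized count of at least 50, and for B2M and NLRC5 the 3 nearest patterns. Some genes that this rule names are not reported here. BRD2 was chosen after their values were seen. Length, GC content and overlaps came from GENCODE v44 mapped to GRCh37 (23954 genes with a GC value), and promoters from RefSeq. Libraries held from 21988065 to 26184599 counts. The floor of 3 read pairs (12 counts) covers counting error only, because PCR copies of a molecule are counted as separate reads.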

Additional observations from a re-analysis of the deposited data

How the results depend on the processing

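None of the 4 members was called in any of the 10 alternatives or without any 1 library, where the lowest adjusted p was 0.999. Without leaving out a library, the Log2FC of B2M ranged from -0.19 to -0.03, that of TAPBP from -0.38 to -0.28, that of NLRC5 from -0.21 to -0.06 and that of ERAP1 from -0.41 to -0.29. Leaving out each library in turn gave -1.39 to 1.02 for B2M, -0.996 to 0.21 for TAPBP, -0.72 to 0.62 for NLRC5, -0.56 to -0.11 for ERAP1 and -0.60 to 0.05 for the members' median. B2M was above 0 when control replicate 2 (1.02) or AP1AR-DT_OE replicate 1 (0.48) was left out, TAPBP when control replicate 1 (0.21) or AP1AR-DT_OE replicate 2 (0.19) was, and NLRC5 (0.62) and the median (0.048) without control replicate 1. The count of genes called was 33, and it was 0 in edgeR (where 112 had an unadjusted p under 0.05), 15 after counts were divided by 4, 57 with the GC correction and 60 with the GC correction and replicate block, and between 45 and 90 without 1 library; the cause was not tested. AP1AR-DT had an adjusted p of 0.39 in edgeR (Log2FC 6.60). A sum of HLA-B, HLA-C and HLA-E was not run, because they were not analysed here. Libraries with the same number deviated together (r = 0.507 over 9473 genes, 0.259 after removal of the GC trend), but with 2 pairs they share only a number. With the replicate block DESeq2 called 37 genes and edgeR 44, no member among them, and the Log2FC of B2M was -0.17 (SE = 0.20, 95% interval from -0.56 to 0.22). Depth limits TAPBP most, with under 10 read pairs a library.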
